A study of Arabidopsis thaliana with 5 samples.

Results

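The genes described here are the mitotic cyclins CYCB1;1, CYCB1;2, CYCB2;1, CYCB2;2 and CYCA1;1, the B-type cyclin-dependent kinases CDKB1;1, CDKB2;1 and CDKB2;2, and the cytokinesis syntaxin KNOLLE of Arabidopsis thaliana. They were picked by gene identifier and are 9 of the 33557 features with a value in each library. Transcript levels were compared between roots of GFP-GrxS5 plants (2 libraries) and roots of the wild type Col-0 (3 libraries), by RNA-seq of total RNA, to ask which genes the glutaredoxin GrxS5 represses. The name GFP-GrxS5 joins green fluorescent protein to GrxS5. The labels give neither the promoter of the construct, the number of lines, the age of the plants nor their growth conditions, and do not say that libraries of a genotype came from separate plants, so the spread between libraries may be technical. The protocol speaks of RNA from both roots and shoots, while every library is labelled root. The unit is FPKM, a fragment count scaled to transcript length and library depth, so levels of different genes are compared per length.

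In plants, B-type cyclins and the plant-specific B-type CDKs accumulate from G2 into mitosis, and their pairing drives entry into division. B-type cyclins are then destroyed by the anaphase-promoting complex (APC/C), and KNOLLE, made only in dividing cells, fuses vesicles into the cell plate. Many of these genes carry the MSA element, with the core AACGG, which is bound by MYB3R transcription factors. In the root their transcripts mark the dividing cells of the meristem at the tip.

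The window of 300 bases before the annotated transcript start was read from the TAIR10.1 reference for all 9 genes and searched for AACGG on either strand (CCGTT is the same core read from the opposite strand). The core was present in 7 of the 9 windows, and in 5 of them at least 2 times, against 23.4% and 4.53% of 27443 protein-coding genes. The windows of all 7 genes that carry the core are shown. Capitals mark each match, and the last base printed lies next to the transcript start.
CYCB1;1, chr4:17624309-17624608, minus strand: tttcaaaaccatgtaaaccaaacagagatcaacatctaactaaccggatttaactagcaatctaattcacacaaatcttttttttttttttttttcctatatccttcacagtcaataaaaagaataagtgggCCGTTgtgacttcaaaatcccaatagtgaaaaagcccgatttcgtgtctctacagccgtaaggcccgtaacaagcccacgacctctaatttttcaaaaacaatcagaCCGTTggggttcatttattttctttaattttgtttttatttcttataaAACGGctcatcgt
CYCB1;2, chr5:1861704-1862003, minus strand: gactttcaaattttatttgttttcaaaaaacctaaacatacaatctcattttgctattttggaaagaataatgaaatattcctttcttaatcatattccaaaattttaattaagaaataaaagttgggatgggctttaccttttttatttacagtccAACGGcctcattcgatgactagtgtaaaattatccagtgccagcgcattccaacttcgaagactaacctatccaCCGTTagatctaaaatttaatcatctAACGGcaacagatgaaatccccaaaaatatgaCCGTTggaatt
CYCB2;1, chr2:7663755-7664054, plus strand: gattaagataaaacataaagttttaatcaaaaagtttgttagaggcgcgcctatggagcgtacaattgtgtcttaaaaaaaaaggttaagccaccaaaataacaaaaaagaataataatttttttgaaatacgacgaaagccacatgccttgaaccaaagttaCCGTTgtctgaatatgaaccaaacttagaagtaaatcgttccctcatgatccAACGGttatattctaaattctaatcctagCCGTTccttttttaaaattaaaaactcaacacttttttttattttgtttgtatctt
CYCB2;2, chr4:16901296-16901595, plus strand: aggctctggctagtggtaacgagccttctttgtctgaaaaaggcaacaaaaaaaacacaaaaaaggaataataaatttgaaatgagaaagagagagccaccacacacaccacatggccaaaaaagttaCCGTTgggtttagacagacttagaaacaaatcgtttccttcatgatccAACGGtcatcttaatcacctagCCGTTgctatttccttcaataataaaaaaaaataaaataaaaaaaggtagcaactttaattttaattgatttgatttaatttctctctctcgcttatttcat
CYCA1;1, chr1:16777353-16777652, minus strand: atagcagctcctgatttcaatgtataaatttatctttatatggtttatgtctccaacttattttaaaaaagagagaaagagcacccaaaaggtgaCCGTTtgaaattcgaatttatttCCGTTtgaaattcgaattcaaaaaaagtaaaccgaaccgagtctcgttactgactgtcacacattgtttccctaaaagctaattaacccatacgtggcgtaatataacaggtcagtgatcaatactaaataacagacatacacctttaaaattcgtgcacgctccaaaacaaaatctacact
KNOLLE, chr1:2711001-2711300, minus strand: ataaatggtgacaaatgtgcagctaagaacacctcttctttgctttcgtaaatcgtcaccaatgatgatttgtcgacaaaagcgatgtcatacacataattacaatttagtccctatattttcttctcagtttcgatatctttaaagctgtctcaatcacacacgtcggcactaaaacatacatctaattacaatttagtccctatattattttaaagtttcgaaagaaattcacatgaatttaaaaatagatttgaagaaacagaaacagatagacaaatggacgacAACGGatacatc
CDKB2;2, chr1:7294747-7295046, minus strand: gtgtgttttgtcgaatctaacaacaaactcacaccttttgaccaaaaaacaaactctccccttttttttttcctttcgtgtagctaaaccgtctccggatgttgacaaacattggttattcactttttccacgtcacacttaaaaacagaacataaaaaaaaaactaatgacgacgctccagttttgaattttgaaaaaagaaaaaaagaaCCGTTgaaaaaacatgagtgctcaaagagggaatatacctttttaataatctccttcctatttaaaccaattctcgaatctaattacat
CYCB1;2 had the most matches, with 4, starting 143, 69, 43 and 11 bases before the transcript start. The 2 CYCB2 genes each had 3 matches in the same order of orientations (opposite, gene and opposite strand), starting 137, 85 and 56 bases before the start of CYCB2;1 and 172, 124 and 102 bases before that of its relative. CDKB2;2 had a single match, 89 bases before its start. No match was found for CDKB1;1 and CDKB2;1, whose windows hold 213 and 194 bases of exons of the neighbouring genes AT3G54170 and AT1G76550, so that little of what was searched there is free of other transcripts. Among other cell cycle genes the core stood in 17 of 28 windows of spindle and cytokinesis genes, 8 of 14 of CDK inhibitors, 10 of 20 of transcriptional and APC/C regulators, 8 of 27 of other cyclins and CDKs, and 1 of 12 of DNA replication genes. A match is only a string of letters and was not tested for binding.

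**Figure D1:**
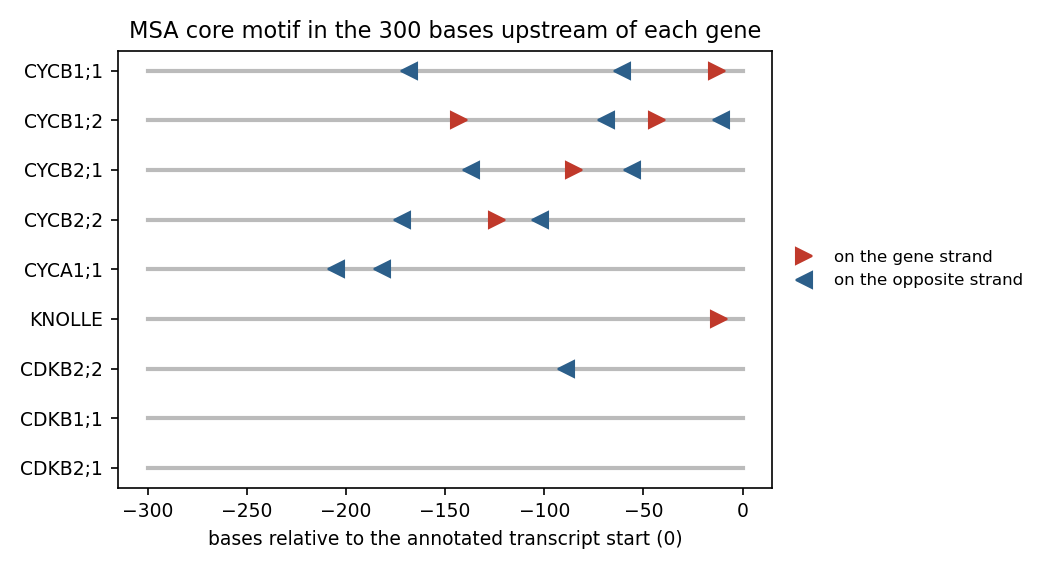
Position of the core AACGG in the 300 bases before the annotated transcript start of each of the 9 genes, in bases from the start, with triangles pointing along the strand that reads AACGG. The 4 B-type cyclins have 3 or 4 matches each, and 2 of the kinase genes have none.

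KNOLLE had the highest level of the 9 genes and CYCB2;1 the lowest in both genotypes. In GFP-GrxS5 roots mean FPKM ran from 66.3 ± 3.83 for KNOLLE through 43.6 ± 0.374 for CDKB2;1 to 5.67 ± 0.495 for CYCB2;1 (SD, n = 2). In Col-0 roots the same genes had 78.9 ± 6.04, 50.5 ± 1.17 and 6.52 ± 1.05 FPKM (SD, n = 3). Neighbours in the order whose libraries overlapped were CDKB2;2 with CYCB1;2, CYCA1;1 with CYCB2;2, and CYCB1;1 with the gene ranked just above it in each genotype. All other neighbours were separated in every library of a genotype. By mean level over the 5 libraries KNOLLE stood above 88.1% of 19693 tested genes and CYCB2;1 above 23.8%. The level of CYCB2;1 rests on an estimated 30 to 56 fragments per library, that of KNOLLE on 296 to 499, from an estimated 3360000 to 4470000 fragments in a library.

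**Figure D2:**
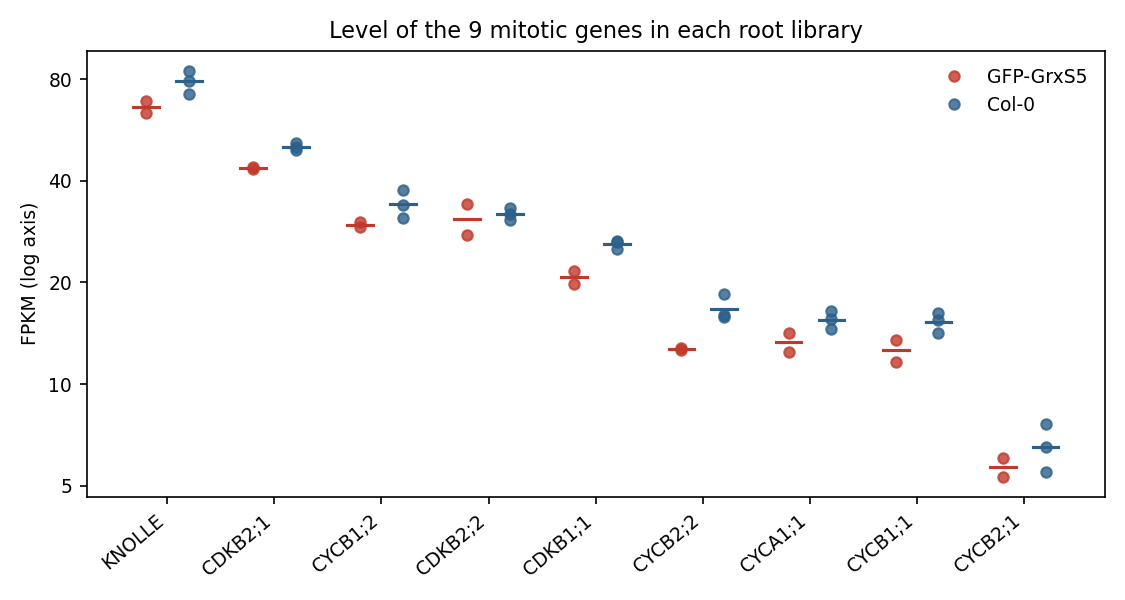
FPKM (log axis) of each of the 9 genes in the 2 GFP-GrxS5 libraries and the 3 Col-0 libraries, with points for libraries and short lines for group means, in order of the Col-0 mean. In 7 genes both GFP-GrxS5 points lie below all Col-0 points, and CYCB2;1 and CDKB2;2 overlap.

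All 9 genes had a lower mean FPKM in GFP-GrxS5 roots than in Col-0 roots, and none of them passed the test. Mean FPKM differed by between -24.3% for CYCB2;2 and -3.63% for CDKB2;2, and the median log2 change was -0.21, against 0.01 over all tested genes. A log2 change below 0 was found in 47.9% of all tested genes. With limma on log2(FPKM + 1) and Benjamini-Hochberg adjustment over all tested genes, 0 of the 9 passed an adjusted p of 0.05, where 7.08% of all genes passed (4.73% higher and 2.35% lower). At an unadjusted p under 0.05, 4 of the 9 were lower (CYCB2;2, CDKB1;1, CDKB2;1 and KNOLLE), against 10.2% of all genes. That count was 2 without Col-0 replicate 3, 3 without Col-0 replicate 1 or 2, 2 with no variance trend and 1 with a replicate block. It also fell without either GFP-GrxS5 library. It was 5 under quantile normalization and 4 in the other refits of all libraries. In 7 of the 9 both GFP-GrxS5 libraries lay below all Col-0 libraries, against 20.3% of all genes. The genes are expressed in the same dividing cells and share libraries, so they are not 9 separate observations of the genotype. In whole roots, fewer dividing cells and less transcript per dividing cell cannot be told apart.

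Loci of the genes are given below as in the files, on the TAIR10 build. GrxS5 itself had 103 and 124 FPKM in the GFP-GrxS5 libraries, against 3.06, 4.14 and 3.23 FPKM in the Col-0 libraries (log2 change 4.68, limma, Benjamini-Hochberg adjusted p = 2.84e-05). The protocol names 2 library kits and 2 sequencers without tying them to libraries, so kit, sequencer and genotype cannot be told apart.

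CYCB1;1 (AT4G37490, chr4:17621886-17624285), the cyclin most used as a marker of cells in G2 and mitosis, had 11.6 and 13.5 FPKM in GFP-GrxS5 roots, against 15.5, 14.2 and 16.2 FPKM in Col-0 roots. The groups did not overlap, but GFP-GrxS5 replicate 2 lay close to Col-0 replicate 2. The log2 change was -0.27 (95% interval -0.56 to 0.03, limma, Benjamini-Hochberg adjusted p = 0.243). CYCB1;2 (AT5G06150, chr5:1859279-1861649), of the same subfamily, had 30.2 and 29.2 FPKM in GFP-GrxS5 roots, against 31.1, 34.1 and 37.7 FPKM in Col-0 roots. Its groups were separated by the gap between GFP-GrxS5 replicate 1 and Col-0 replicate 1, and its log2 change of -0.20 (95% interval -0.44 to 0.05) missed the threshold (limma, Benjamini-Hochberg adjusted p = 0.292).

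CYCB2;2 (AT4G35620, chr4:16901621-16903920) had the most negative log2 change of the 9. It had 12.6 and 12.7 FPKM in GFP-GrxS5 roots, against 16.0, 15.8 and 18.4 FPKM in Col-0 roots, with no overlap. The log2 change was -0.37 (95% interval -0.65 to -0.10, limma, Benjamini-Hochberg adjusted p = 0.107). Its close relative CYCB2;1 (AT2G17620, chr2:7664103-7666522), with 82.7% of aligned coding bases identical, had 6.01 and 5.32 FPKM in GFP-GrxS5 roots, against 7.59, 5.48 and 6.50 FPKM in Col-0 roots. Col-0 replicate 2 lay between the GFP-GrxS5 libraries, and the interval of its log2 change, -0.58 to 0.24, is the widest of the 9 (limma, Benjamini-Hochberg adjusted p = 0.612). The longest run of bases identical between their coding sequences was 30. CYCB2;2 FPKM was 2.09 and 2.40 times that of CYCB2;1 in the GFP-GrxS5 libraries, against 2.88 and 2.83 times in Col-0 replicates 2 and 3, while Col-0 replicate 1 lay inside the GFP-GrxS5 range.

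CYCA1;1 (AT1G44110, chr1:16774865-16777247), the A-type cyclin expressed around the entry into mitosis, had 12.4 and 14.2 FPKM in GFP-GrxS5 roots, against 15.5, 14.5 and 16.4 FPKM in Col-0 roots. GFP-GrxS5 replicate 2 and Col-0 replicate 2 were close, without overlap of the groups. The log2 change was -0.21 (95% interval -0.49 to 0.07, limma, Benjamini-Hochberg adjusted p = 0.330). Summed over the 5 cyclins, FPKM was 73.9 ± 1.45 in GFP-GrxS5 roots (SD, n = 2) and 88.3 ± 6.04 in Col-0 roots (SD, n = 3).

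Of the kinase genes, CDKB1;1 (AT3G54180, chr3:20059796-20061438), which is expressed from S phase into mitosis, had 19.8 and 21.6 FPKM in GFP-GrxS5 roots, against 25.2, 26.6 and 26.4 FPKM in Col-0 roots. The groups stood well apart relative to their spread, with a log2 change of -0.32 (95% interval -0.54 to -0.09), yet the smallest adjusted p of the 9 missed the threshold (limma, Benjamini-Hochberg adjusted p = 0.0949). Over the alternative settings its adjusted p ran from 0.0648 to 0.281. CDKB1;2, the other member of its subfamily, with 85.9% identical coding bases, had 14.7 and 16.0 FPKM in GFP-GrxS5 roots, against 16.8, 21.7 and 17.3 FPKM in Col-0 roots (limma, Benjamini-Hochberg adjusted p = 0.297).

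CDKB2;1 (AT1G76540, chr1:28718213-28722521), expressed from G2 into mitosis, had 43.9 and 43.4 FPKM in GFP-GrxS5 roots, against 51.7, 50.5 and 49.4 FPKM in Col-0 roots. Both groups were tight and separate, and the log2 change was -0.21 (95% interval -0.38 to -0.03, limma, Benjamini-Hochberg adjusted p = 0.151). The files list it under a locus shared with AT1G76530, which had 0 FPKM in 4 libraries and 0.172 FPKM in Col-0 replicate 3. CDKB2;2 (AT1G20930, chr1:7292568-7294746), 86.6% identical to it over aligned coding bases, had 27.6 and 34.1 FPKM in GFP-GrxS5 roots, against 30.7, 33.3 and 32.0 FPKM in Col-0 roots. The GFP-GrxS5 libraries lay on either side of all Col-0 libraries. The log2 change was -0.06 (95% interval -0.32 to 0.20, limma, Benjamini-Hochberg adjusted p = 0.790), and it was 0.09 without GFP-GrxS5 replicate 1. CDKB2;1 transcripts were 1.59 and 1.27 times those of CDKB2;2 in the GFP-GrxS5 libraries, and 1.68, 1.52 and 1.54 times in the Col-0 libraries, so the low value came from GFP-GrxS5 replicate 2.

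KNOLLE (AT1G08560, chr1:2709632-2710912) had 69.0 and 63.6 FPKM in GFP-GrxS5 roots, against 79.4, 72.7 and 84.7 FPKM in Col-0 roots. Both GFP-GrxS5 libraries lay below the lowest Col-0 library, with a log2 change of -0.25 (SE 0.09, 95% interval -0.46 to -0.04, limma, Benjamini-Hochberg adjusted p = 0.151). In the TAIR10.1 annotation 464 bases of KNOLLE overlap NPQ1 on the opposite strand, although their loci in the files do not overlap. No source used here says whether reads were counted by strand. NPQ1, which encodes a xanthophyll cycle enzyme of chloroplasts, had 6.40 and 7.38 FPKM in GFP-GrxS5 roots, against 4.07, 4.41 and 5.02 FPKM in Col-0 roots. The same annotation has shorter overlaps on the opposite strand for all 3 kinase genes. CDKB1;1 shares 71 bases with AT3G54190, which had 31.7 and 31.8 FPKM in GFP-GrxS5 roots, against 25.2, 31.4 and 29.7 FPKM in Col-0 roots. CDKB2;2 shares 192 bases with AT1G20925, which was at 0 in both GFP-GrxS5 libraries and at most 0.385 FPKM in the Col-0 libraries, and CDKB2;1 shares 44 bases with AT1G76530.

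Some of these changes rest on single libraries. Leaving out 1 library moved the log2 change by over 1.5 times for CYCB1;1 (-0.16 without GFP-GrxS5 replicate 1), CYCA1;1 (-0.12 without GFP-GrxS5 replicate 1) and CYCB1;2 (-0.13 without Col-0 replicate 3). For CYCB2;1 it was -0.09 without GFP-GrxS5 replicate 2, -0.07 without Col-0 replicate 1 and -0.27 without Col-0 replicate 2. For CDKB2;2, besides the change of sign, it was -0.21 without GFP-GrxS5 replicate 2 and -0.03 without Col-0 replicate 2. KNOLLE and the other 3 genes moved by less than that.

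**Figure D3:**
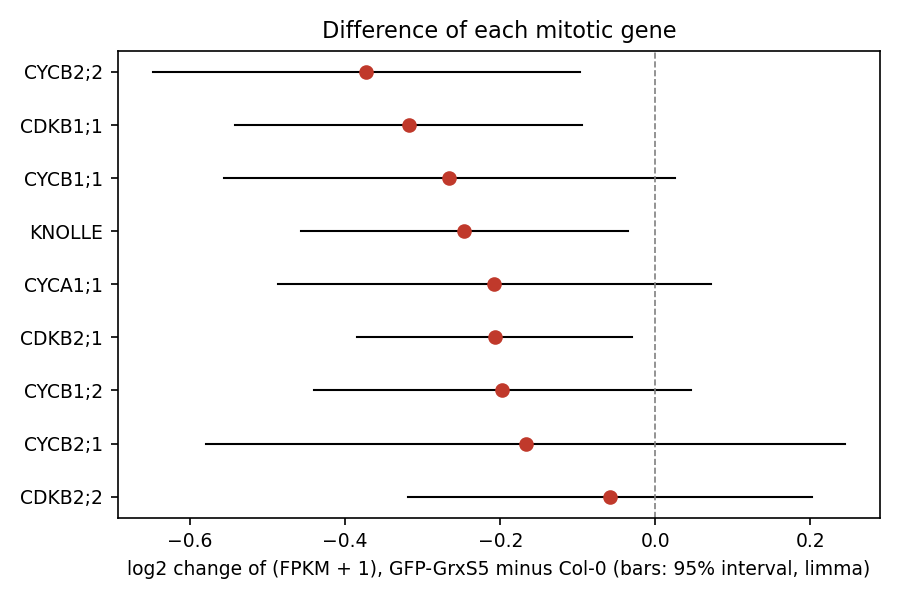
Log2 change of FPKM + 1 in GFP-GrxS5 minus Col-0 roots for each of the 9 genes, with points for limma estimates and bars for 95% intervals. All 9 estimates lie below 0, from -0.37 for CYCB2;2 to -0.06 for CDKB2;2, and 5 of the intervals include 0.

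The summed FPKM of the 9 was 233 and 238 in the GFP-GrxS5 libraries, against 273, 267 and 288 in the Col-0 libraries. The sum made up 0.0249% and 0.0248% of all FPKM in the GFP-GrxS5 libraries, and 0.0289%, 0.0289% and 0.0307% in the Col-0 libraries. GFP-GrxS5 replicate 1 held the lowest value of 5 genes and GFP-GrxS5 replicate 2 that of the other 4. Col-0 replicate 3 held the highest value of 5 genes, Col-0 replicate 1 of 2, Col-0 replicate 2 of 1 (CDKB1;1) and GFP-GrxS5 replicate 2 of 1 (CDKB2;2). The groups of the summed values did not overlap, while the lowest and highest values of single genes fell in different libraries.

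**Figure D4:**
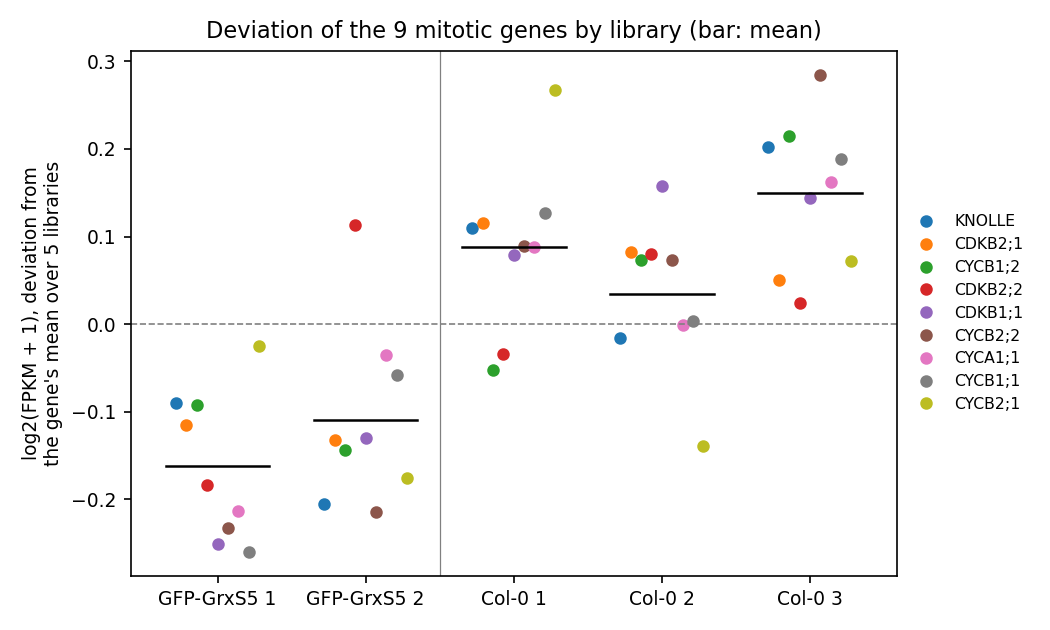
Deviation of log2(FPKM + 1) of each of the 9 genes from its own mean over the 5 libraries, with a point per gene and a line for the mean of the 9. The mean was -0.16 and -0.11 in GFP-GrxS5 replicates 1 and 2, against 0.09, 0.03 and 0.15 in Col-0 replicates 1 to 3, and a single point, of CDKB2;2, lies above 0 in GFP-GrxS5 replicate 2.

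The rest of the cell cycle machinery was read from 5 lists of 101 genes, of which 97 were tested. A single gene passed, HINKEL, which was lower, where 2.35% of all tested genes passed lower and 4.73% higher. Of the 97, 72 had a log2 change below 0. Among all tested genes 47.9% had a log2 change below 0. At an unadjusted p under 0.05, 28 of the 97 were lower and 1 was higher, against 10.2% lower and 14.1% higher among all genes. Both GFP-GrxS5 libraries lay below all Col-0 libraries in 44 of the 97 and above all of them in 6, against 20.3% below and 22.6% above among all genes.

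Among 28 spindle and cytokinesis genes 1 fell, 0 rose and 27 did not pass, where 2.35% of all genes fell and 4.73% rose. The median log2 change was -0.25. At an unadjusted p under 0.05, 12 were lower and 0 higher, against 10.2% and 14.1% of all genes. In 19 of the 28 both GFP-GrxS5 libraries lay below all Col-0 libraries, against 20.3% of all genes. In 2 of the 28, KEULE and SNAP33, both lay above all Col-0 libraries, against 22.6% of all genes. HINKEL, a kinesin of the phragmoplast needed for cell plate growth, fell to 11.9 and 11.1 FPKM in GFP-GrxS5 roots, against 18.0, 17.7 and 15.6 FPKM in Col-0 roots. The groups did not overlap, and the log2 change was -0.53 (SE 0.12, limma, Benjamini-Hochberg adjusted p = 0.0414). The call was lost without any 1 of the 5 libraries. With a Col-0 library left out, limma's Benjamini-Hochberg adjusted p ran from 0.0629 to 0.121. The call was also lost with no filter on low values (0.0625), with no variance trend (0.0706) and with a replicate block (0.0963). TPX2, a spindle assembly factor, had 14.7 and 13.3 FPKM in GFP-GrxS5 roots, against 18.1, 18.5 and 18.4 FPKM in Col-0 roots. TAN, which marks the division site, had 8.99 and 8.12 FPKM in GFP-GrxS5 roots, against 11.2, 11.5 and 12.3 FPKM in Col-0 roots. PAKRP1L, a phragmoplast kinesin, had 6.56 and 8.03 FPKM in GFP-GrxS5 roots, against 9.45, 10.4 and 10.6 FPKM in Col-0 roots. None of these 3 passed, although none overlapped (limma, adjusted p by Benjamini-Hochberg = 0.0832, 0.101 and 0.124).

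The 12 DNA replication genes, which act in S phase before the mitotic genes, had 0 calls and a median log2 change of -0.23, and 6 of them were lower and 0 higher at an unadjusted p under 0.05 (10.2% and 14.1% of all genes). MCM2, a subunit of the replicative helicase, had 16.3 and 17.1 FPKM in GFP-GrxS5 roots, against 24.2, 22.0 and 22.0 FPKM in Col-0 roots (limma, Benjamini-Hochberg adjusted p = 0.0549). MCM2 passed with median-of-ratios scaling (limma, Benjamini-Hochberg adjusted p = 0.0491), with quantile normalization (0.0423) and when genes under 5 FPKM were filtered (0.0420). For the helicase genes MCM5 and MCM3 and the sliding clamp gene PCNA2, log2 changes of -0.36, -0.35 and -0.26 missed the threshold, with limma's adjusted p (Benjamini-Hochberg) at 0.104, 0.119 and 0.108. The summed FPKM of the 12 was 312 and 331 in the GFP-GrxS5 libraries, against 384, 366 and 366 in the Col-0 libraries. The ratio of the mitotic sum to this replication sum was 0.746 and 0.717 in the GFP-GrxS5 libraries, and 0.710, 0.729 and 0.786 in the Col-0 libraries, so the ratio overlapped between genotypes while both sums did not.

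Of 20 transcriptional and APC/C regulators 0 passed, with a median log2 change of -0.18, and at an unadjusted p under 0.05, 5 were lower (10.2% of all genes) and 0 higher (14.1%). MYB3R4, an activator of genes with MSA elements, had 9.04 and 9.67 FPKM in GFP-GrxS5 roots, against 14.5, 11.6 and 15.0 FPKM in Col-0 roots (limma, Benjamini-Hochberg adjusted p = 0.0875). MYB3R1, which can activate or repress the same genes, had 12.8 and 14.9 FPKM in GFP-GrxS5 roots, against 17.2, 17.1 and 17.5 FPKM in Col-0 roots (limma, Benjamini-Hochberg adjusted p = 0.159). Neither overlapped between the groups. MYB3R3 and MYB3R5, of the same family, had log2 changes of -0.19 and -0.33 (limma, Benjamini-Hochberg adjusted p = 0.431 and 0.388). RBR1, the retinoblastoma protein that holds back S phase entry, and UVI4, an inhibitor of the APC/C, had log2 changes of -0.34 and -0.51 (limma, Benjamini-Hochberg adjusted p = 0.101 and 0.106).

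Of 27 other cyclin and CDK genes 23 were tested and 0 passed, with a median log2 change of -0.16. At an unadjusted p under 0.05, 4 of the 23 were lower and 0 higher, where 10.2% and 14.1% of all genes were. CYCA2;1 had 2.05 and 0.963 FPKM in GFP-GrxS5 roots, against 3.27, 3.37 and 2.68 FPKM in Col-0 roots (limma, Benjamini-Hochberg adjusted p = 0.133). CYCA2;4, CYCD3;2 and CYCD3;3 had log2 changes of -0.43, -0.27 and -0.39 (limma, Benjamini-Hochberg adjusted p = 0.151, 0.128 and 0.183). CDKA;1, the kinase present throughout the cycle, had 67.9 and 68.5 FPKM in GFP-GrxS5 roots, against 52.0, 65.9 and 63.0 FPKM in Col-0 roots (limma, Benjamini-Hochberg adjusted p = 0.352). The mitotic sum was 3.43 and 3.47 times CDKA;1 in the GFP-GrxS5 libraries, and 5.25, 4.05 and 4.57 times in the Col-0 libraries, without overlap. CDKA;1 itself lay higher in both GFP-GrxS5 libraries than in any Col-0 library, which adds to the gap in this ratio.

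Besides inhibitor proteins, which restrain division and promote endoreduplication, the list of 14 CDK inhibitor genes includes the kinase gene WEE1. The 14 had 0 calls and a median log2 change of 0.08. At an unadjusted p under 0.05 KRP2 was higher and SMR4 lower (14.1% and 10.2% of all genes). KRP2 had 35.1 and 36.9 FPKM in GFP-GrxS5 roots, against 27.8, 31.3 and 29.1 FPKM in Col-0 roots, without overlap (limma, Benjamini-Hochberg adjusted p = 0.115). SMR4 had 3.48 and 4.50 FPKM in GFP-GrxS5 roots, against 8.49, 7.88 and 6.28 FPKM in Col-0 roots (limma, Benjamini-Hochberg adjusted p = 0.0527, and 0.0465 with median-of-ratios scaling and 0.0413 with quantile normalization). SMR7 had 13.9 and 10.3 FPKM in GFP-GrxS5 roots, against 3.87, 11.2 and 6.14 FPKM in Col-0 roots, with overlap (limma, Benjamini-Hochberg adjusted p = 0.229). SMR5 was listed at 0 in both GFP-GrxS5 libraries and in Col-0 replicate 2, and at 18.6 and 4.91 FPKM in Col-0 replicates 1 and 3, so Col-0 libraries disagree on it. It passed the filter on low values only through those 2 Col-0 libraries, and no call is read from it.

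**Figure D5:**
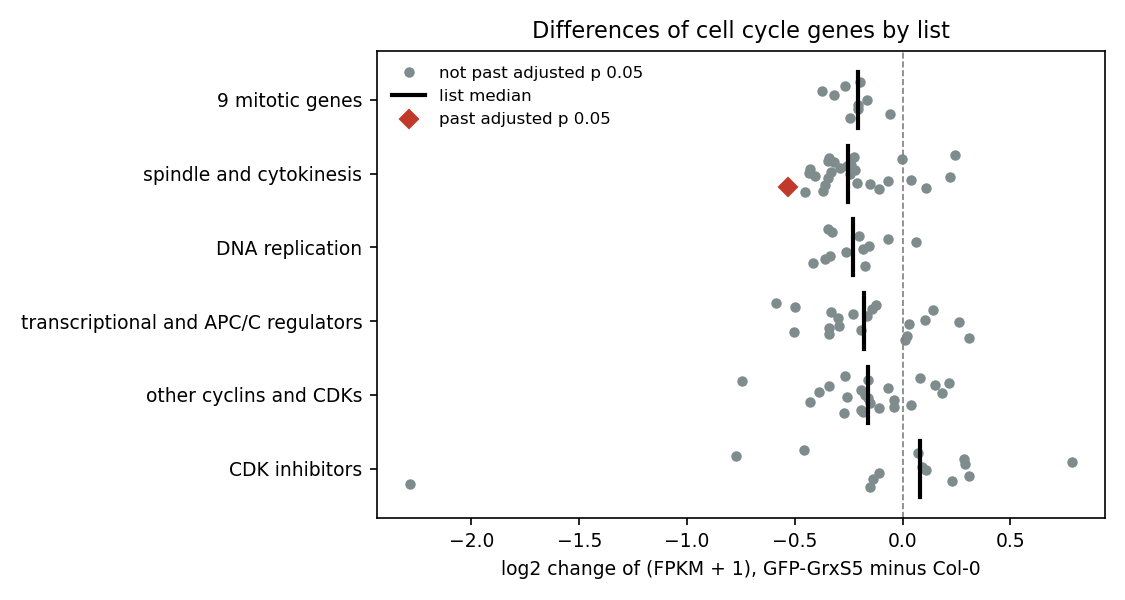
Log2 change of FPKM + 1 in GFP-GrxS5 minus Col-0 roots for every tested gene of the 9 mitotic genes and 5 cell cycle lists, with a point per gene, a line for the list median and a diamond for the gene past an adjusted p of 0.05 (HINKEL). List medians run from -0.25 for spindle and cytokinesis genes to 0.08 for CDK inhibitors.

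Markers of root zones and of shoots were read beside these values. PLT1, a master gene of the root stem cell niche and meristem, had 5.88 and 5.81 FPKM in GFP-GrxS5 roots, against 9.39, 10.5 and 8.37 FPKM in Col-0 roots (limma, Benjamini-Hochberg adjusted p = 0.0564), and PLT2 had 3.32 and 2.91 FPKM in GFP-GrxS5 roots, against 5.95, 4.84 and 3.53 FPKM in Col-0 roots (0.252). WOX5, of the quiescent centre, had 4.91 and 1.47 FPKM in GFP-GrxS5 roots, against 2.95, 1.28 and 1.56 FPKM in Col-0 roots, with overlap (limma, Benjamini-Hochberg adjusted p = 0.578). CASP1, of the differentiated endodermis, had 166 and 152 FPKM in GFP-GrxS5 roots, against 122, 131 and 143 FPKM in Col-0 roots (limma, Benjamini-Hochberg adjusted p = 0.112). All 8 root markers were tested and 0 passed, 4 on each side of 0. Their summed FPKM was 299.7 and 285 in the GFP-GrxS5 libraries, against 258, 260.5 and 277 in the Col-0 libraries. CASP1 has the highest level of the 8 and weighs most in these sums, so the sums do not stand for the 8 as a set. Of 13 shoot markers 6 were tested and 5 rose, where 4.73% of all genes rose. All 6 are RBCS or LHC genes of photosynthesis, and none of the meristem or stomatal genes listed was tested. The summed FPKM of the 13 was 1005 and 1012 in the GFP-GrxS5 libraries, against 407, 371 and 449 in the Col-0 libraries. RBCS1A, for the small subunit of the photosynthetic enzyme Rubisco, rose to 386 and 362 FPKM in GFP-GrxS5 roots, against 165, 148 and 167 FPKM in Col-0 roots (limma, Benjamini-Hochberg adjusted p = 6.15e-04). Among the shoot markers the meristem gene CLV3 and the stomatal genes MUTE and FAMA were at 0 in all 5 libraries. STM reached 0.356 FPKM in GFP-GrxS5 replicate 1 and SPCH 0.262 FPKM in Col-0 replicate 2, each at 0 elsewhere. The part of these differences in the mitotic values was not tested.

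Genes other than these 9 were ranked by how closely their deviations over the 5 libraries followed the mean deviation of the 9. Among 15805 genes with a mean of at least 5 FPKM, the closest were THO5B, AT5G42210, EIF2 GAMMA, AT2G25570 and EMB2083, with root mean square differences of 0.0139 to 0.0204 on the log2 scale. For comparison, the 9 genes themselves differed from their own mean profile by 0.0435 to 0.136, and the median gene by 0.187. THO5B had 14.2 and 14.8 FPKM in GFP-GrxS5 roots, against 17.5, 16.6 and 17.9 FPKM in Col-0 roots. These genes were picked for this profile, so their changes restate the choice.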

How the data were processed

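The authors deposited FPKM for each gene, 1 file per library, with a quantification status beside each value per the file headers. TAIR10 is the build in the submitters' processing notes. No source used here names the aligner or the quantifier. The members, lists and tests were chosen with earlier results of these data known.

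Genes with at least 1 FPKM in at least 2 of 5 libraries and status OK throughout were kept, 19693 in all, including all 9 members. The contrast GFP-GrxS5 minus Col-0 was fitted to log2(FPKM + 1) by limma 3.58.1 in R 4.3.3 (variance trend, two-sided, Benjamini-Hochberg over kept genes, threshold 0.05). Log2 changes on this scale understate those of low genes. Intervals are 95% limma intervals. There were 3 residual degrees of freedom, and the prior added 4.37 (median over genes). Named genes were the members, the up to 4 genes of each list with the smallest p, the 5 genes closest in profile, and GrxS5. Markers, CDKA;1, CDKB1;2, NPQ1, CKS1, KEULE, SNAP33, MYB3R3, MYB3R5 and WEE1 were named outside this rule after their values were seen. The other genes overlapping a member or its upstream window were also named outside it. The files call KNOLLE KN, HINKEL NACK1, PAKRP1L KIN12B and UVI4 PYM.

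Depth was estimated from FPKM times length of low genes with a single transcript of 1500 to 4000 bases, whose mode was taken as 1 fragment. Library totals came to 4330000 and 3360000 fragments for GFP-GrxS5 replicates 1 and 2, and 4470000, 3850000 and 4250000 for Col-0 replicates 1 to 3. Fragment numbers are therefore approximate, and an estimate of 30 fragments carries a counting error of 18.4%. Correlations of log2(FPKM + 1) across kept genes, which are not independent replicates, were 0.975 to 0.979 within and 0.960 to 0.965 between genotypes. Upstream windows, transcript lengths and coding identity came from the RefSeq TAIR10.1 genome and annotation (Python 3.11.15, Biopython 1.88). Of 28629 genes compared, 99.997% overlapped their locus in the files, but 52.0% shared at least 1 end with it and 31.1% both. KNOLLE, on the minus strand, starts at 2711000 in TAIR10.1, against 2710912 in the files. Windows and distances to matches therefore hold for the TAIR10.1 transcript starts only. The fit was tested on simulated data with planted changes larger than those of the members, so that test does not bear on changes of their size. Refits changed the pseudocount (0.1 or 0.5), the filter (none, or 5 FPKM), the scaling (median-of-ratios, quantile), the variance trend (none) or the design (a replicate block, or each library left out).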

Additional observations from a re-analysis of the deposited data

How the results depend on the processing

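None of the 9 mitotic genes passed an adjusted p of 0.05 in the fit reported or in any of the 13 alternatives, and 8 of the 9 kept a log2 change below 0 in all of them. For CDKB2;2 it ran from -0.207 to 0.0898 over fits that left out a library, and was above 0 without GFP-GrxS5 replicate 1, a fit in which the lone GFP-GrxS5 library is assumed to vary like the Col-0 libraries. The median log2 change of the 9 was -0.26 under quantile normalization and ran from -0.27 to -0.19 over fits that left out a library. The median of all genes moved by less than 0.1 under each scaling.

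Over all genes, 932 were higher and 462 lower (66.9% higher). Quantile normalization gave 789 and 648 (54.9% higher), no variance trend gave 398 and 184, and leaving out a library gave 313 to 594 and 192 to 242. In the 5 cell cycle lists the gene called lower was HINKEL. The count lower was 0 with no filter and with no variance trend, 2 with a filter of 5 FPKM (HINKEL and MCM2), 3 with median-of-ratios scaling and 3 with quantile normalization (HINKEL, MCM2 and SMR4 in both), and 0 to 1 over fits that left out a library (SMR5 without Col-0 replicate 2). That library lists SMR5 at 0, and SMR5 passed the filter only through the other 2 Col-0 libraries, so this call follows from the omission. The count higher was 0 to 1 over fits that left out a library (CKS1 without GFP-GrxS5 replicate 1).

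Correlations of deviations between same-numbered libraries were -0.04 for replicate 1 and -0.01 for replicate 2. The 2 GFP-GrxS5 libraries deviate from their mean by equal and opposite amounts, so the correlations of one mirror those of the other. Neither same-numbered value was above 0, so they give no sign that the numbers pair libraries. They do not show that pairing is absent. A replicate block gave 418 higher and 176 lower genes, and 0 lower cell cycle list genes (HINKEL had limma's Benjamini-Hochberg adjusted p at 0.0963). Of the 9 mitotic genes 0 passed with the block (1 at an unadjusted p under 0.05). Only Col-0 has a replicate 3, so that library adds nothing to the contrast under the block. The log2 changes of the named genes then equal those without Col-0 replicate 3. Precision is limited by the 2 GFP-GrxS5 libraries and, for CYCB2;1, by the 30 to 56 fragments estimated behind each value.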
